A study of Mus musculus with 8 samples.

Results

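The miR-17-92 cluster is a group of 6 microRNA (miRNA) hairpins on mouse chromosome 14 that are cut from a single long transcript, Mir17hg. Its members here were all rows of both count tables that lie in a window of 2.5 kb on that chromosome, inside Mir17hg. These were 6 of the 5518 rows: Mir17, Mir18, Mir19a, Mir20a, Mir19b-1 and Mir92-1, and no other row lay inside Mir17hg. Each row is a whole hairpin, so counts from its arms and from its precursor are summed.

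The cluster was counted in 8 libraries of 3 groups. The first group held 2 libraries of mouse embryonic stem (MES) cells, grown feeder-free with leukaemia inhibitory factor and not induced. They were sequenced by TEsR, in which full-length small RNAs are joined to linkers, amplified and captured by hybridisation to probes, without size selection. The second held 4 TEsR libraries of mouse embryonic fibroblasts (MEFs) that carry a conditional TRF2 allele and Rosa26-CreERT2, a Cre recombinase that tamoxifen switches on. TRF2 is a protein that caps telomeres. By the labels 2 of these 4 were induced with 0.6 µM 4-hydroxytamoxifen for 48 hours and 2 were not. Their columns carry the codes mm and pm, which no label explains, so the 4 were kept as 1 group, named here MEFmmS1, MEFmmS2, MEFpmS1 and MEFpmS2. The spread of that group therefore includes any effect of induction, and no comparison of induced with uninduced cells was made. The third group held 2 libraries of induced MEFs made by standard TruSeq small RNA sequencing, named by their indexes ATCACG and CGATGT. No uninduced TruSeq library was used, whether the MES cells carry the TRF2 allele is not stated, and the tables count small RNAs only, so loss of TRF2 was not checked. Nothing in the labels says that replicate libraries are separate cultures, and every p-value therefore measures only the spread between these libraries, which may be technical.

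Hairpins of this cluster are excised from the primary transcript by Drosha and then cut by Dicer to mature miRNAs, which repress mRNAs that pair with the seed, bases 2 to 8 of the miRNA. The cluster is driven by MYC and E2F factors, promotes proliferation and cell survival, and is often amplified in lymphoma, which gave it the name oncomir-1. It is known to be expressed in embryonic stem cells and in dividing fibroblasts. Mice and other mammals have a pair of paralogous clusters, Mir106b-25 inside Mcm7 and Mir106a-363 on the X chromosome, and some members have a second gene copy in the latter.

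The mature sequences of the arms usually dominant in these hairpins are shown because they set which members can be told apart by sequence. They are from RefSeq (GRCm38.p6, the assembly also called mm10), are written 5′ to 3′, and have the seed in capitals. All 6 members were matched by symbol.
miR-17-5p (Mir17, chr14:115043671-115043754, plus strand): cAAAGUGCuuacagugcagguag
miR-20a-5p (Mir20a, chr14:115044157-115044263, plus strand): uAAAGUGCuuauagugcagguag
miR-18a-5p (Mir18, chr14:115043851-115043946, plus strand): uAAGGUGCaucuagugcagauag
miR-19a-3p (Mir19a, chr14:115044000-115044081, plus strand): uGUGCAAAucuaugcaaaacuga
miR-19b-3p (Mir19b-1, chr14:115044305-115044391, plus strand): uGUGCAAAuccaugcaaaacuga
miR-92a-3p (Mir92-1, chr14:115044427-115044506, plus strand): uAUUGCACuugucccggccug
The coordinates are those of the hairpins in the count tables, and all 6 hairpins lie within the second exon of Mir17hg (chr14:115042879-115046727) in GENCODE vM21.

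The 6 members carry 4 seeds. Mir17 and Mir20a share AAAGUGC and differ at 2 of 23 bases, by C1U and C12U counted from the 5′ end with the base of Mir17 first. Mir19a and Mir19b-1 share GUGCAAA and differ only by U11C. Mir18 (AAGGUGC) and Mir92-1 (AUUGCAC) share their seed with no other member.

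Mir19b-1 and Mir92-1 are the members with a second gene copy. The miR-19b-3p sequence occurs in 2 of the 1005 mouse hairpins compared, Mir19b-1 and Mir19b-2, and miR-92a-3p also in 2, Mir92-1 and Mir92-2. The longest stretch shared by these hairpin pairs was 25 bases for miR-19b and 22 bases for miR-92a, so a read of the mature 3p miRNA fits both copies equally. The mature sequences shown for Mir17, Mir18, Mir19a and Mir20a each occur in 1 hairpin.

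Beside the cluster, the libraries differed in depth and makeup. They held 2676776 and 2785150 counts in MES, 3221641 to 3768668 in MEFs by TEsR and 8442960 and 8961221 in MEFs by TruSeq. Counts on miRNA rows that overlap no snoRNA, snRNA or rRNA row were 6480 and 6730 in MES, 57230 to 261326 in MEF TEsR and 3366 and 5403 in TruSeq. They made up 0.242% of all counts in both MES libraries, 1.52% to 7.39% in MEF TEsR and 0.0399% and 0.0603% in TruSeq. Stem cell miRNAs held 19.7% and 21.3% of miRNA counts in MES with 12 of 12 rows detected, had 0 to 5 counts in MEF TEsR, and 0 in TruSeq. Of 15 fibroblast or mesenchymal rows, 8 to 11 were detected in MEF TEsR, with 25.7% to 31.1% of miRNA counts. In TruSeq 10 and 11 were detected, with 15.7% and 16.6%, and in MES 6 and 7, with 5.60% and 5.93%. By TEsR these shares were nearly all Mir21a, with 61052 of 64103 counts in MEFmmS1, 17008 of 17796 in MEFmmS2 and 69764 of 74174 in MEFpmS1. Mir21a gave 36842 of 39436 in MEFpmS2, and 350 of 377 and 370 of 384 in MES. In TruSeq it gave 55 of 848 in ATCACG and 75 of 559 in CGATGT, so the shares rest on different rows by method. Muscle markers had at most 17 counts in any library, blood markers at most 7 and neural markers 0, while epithelial markers held 3.75% and 4.01% of miRNA counts in MES and at most 19 counts in a MEF library.

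As a whole the cluster had counts in every library, but the order of the groups turned with the denominator. By counts-per-million (CPM) of all small RNA counts, the 6 rows together had 329 and 338 in the MES libraries. In MEF TEsR they had 1075 in MEFmmS1, 357 in MEFmmS2, 1430 in MEFpmS1 and 825 in MEFpmS2, and in TruSeq 195 in ATCACG and 94.3 in CGATGT. The groups did not overlap, although MEFmmS2 lay close to the MES libraries. The mean was 2.76-fold higher in MEF TEsR than in MES in CPM, at 922 ± 451 (SD, n = 4) against 333 ± 5.92 (SD, n = 2). The two-sided exact permutation p was 0.133, the smallest that 2 against 4 libraries allow. With CPM rescaled by the trimmed mean of M-values (TMM) the mean was 1.53-fold higher in MEF TEsR, MES at 478 lay within the MEF range of 353 to 911, and the exact permutation p was 0.4.

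As a share of miRNA counts the cluster stood the other way. It held 14.0% (exact Clopper-Pearson 95% interval 13.1% to 14.8%) and 13.6% (12.8% to 14.5%) in the MES libraries. In MEF TEsR the share was 1.93%, 2.35%, 1.94% and 1.73% in MEFmmS1, MEFmmS2, MEFpmS1 and MEFpmS2, and in TruSeq 32.4% and 23.6% in ATCACG and CGATGT. The mean share in MES was 6.94-fold that of MEF TEsR (exact permutation p = 0.133, two-sided, n = 2 and 4), and that in TruSeq 14.1-fold that of MEF TEsR (exact permutation p = 0.133). Both differences were larger than the spread within each group. The second rested on Mir19b-1 and Mir92-1. With these left out of the cluster but kept in the miRNA total, the share was 1.92% ± 0.237 (SD, n = 4) in MEF TEsR. In TruSeq it was then 0.525% ± 0.0696 (SD, n = 2), so that it was 3.67-fold higher by TEsR. With the same 2 rows left out of the cluster, MES was still 7.07-fold higher than MEF TEsR. The share of miRNA in all counts moved with this result, as given above, and its part in the result was not tested. Intervals cover only the counting error of reads within a library. Reads carried no molecular identifiers, so amplified copies could not be told from separate molecules.

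**Figure D1:**
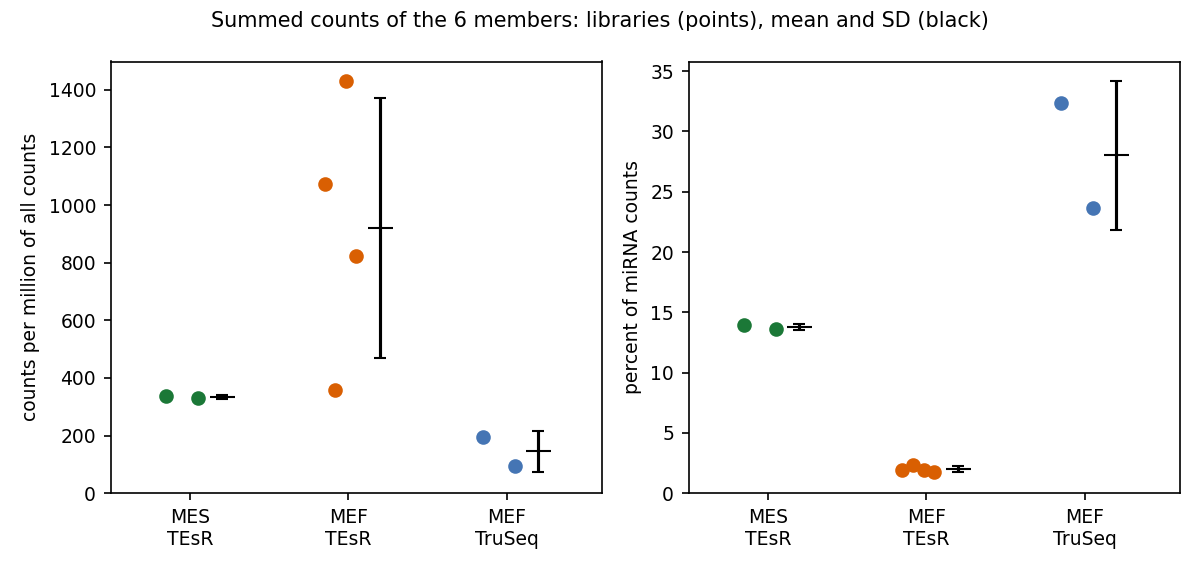
Summed counts of the 6 members in each library (points) with the mean and SD of the group (black), in CPM of all counts (left) and as percent of miRNA counts (right). MEF TEsR is highest on the left, with a mean of 922, and lowest on the right, with a mean of 1.99%.

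Mir19a led the cluster in both cell types by TEsR. It is one of the pair of miR-19 members, known as the main growth-promoting part of the cluster in B-cell lymphoma. It had 620 and 574 counts in the MES libraries, and 2583, 998, 3914 and 2095 in MEFmmS1, MEFmmS2, MEFpmS1 and MEFpmS2. In TruSeq it had no count, in libraries with the most counts of the series in all but the fewest on miRNA rows. Its share of the cluster was 65.6% ± 0.569 (SD, n = 2) in MES against 73.7% ± 6.47 (SD, n = 4) in MEF TEsR. By count it ranked 2 and 3 among miRNA rows in the MES libraries and 5 or 6 in the MEF TEsR libraries.

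Mir19b-1, whose 3p miRNA differs from that of Mir19a by 1 base, had the reverse pattern. It had 0 and 1 counts in MES and 3, 2, 6 and 0 counts in the MEF TEsR libraries. In TruSeq it had 859 and 391 counts in ATCACG and CGATGT, ranking 2 in both. Its twin copy Mir19b-2 had 6 and 4 counts in MES and none in any MEF library.

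Mir18, the hairpin of miR-18a, which is known to act on TGF-beta signalling, followed Mir19a by TEsR. It had 139 and 136 counts in MES, 785, 200, 765 and 402 in the MEF TEsR libraries in the order above, and 10 and 3 in TruSeq. Its share of the cluster was 15.1% ± 0.459 (SD, n = 2) in MES against 16.2% ± 2.28 (SD, n = 4) in MEF TEsR, so it differed by less than the spread between MEF libraries.

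Mir17 and Mir20a carry the AAAGUGC seed, whose known targets include the cell cycle inhibitor Cdkn1a and E2f1. Mir17 had 35.9 and 39.6 CPM in MES and 85.5, 18.8, 56.0 and 20.5 CPM in the MEF TEsR libraries. In TruSeq it had 0.781 and 0.118 CPM, on 7 and 1 counts. Mir20a had 66 and 56 counts in MES, 156, 23, 76 and 42 in the MEF TEsR libraries, and 14 and 12 in TruSeq. Together they made up 18.0% ± 0.515 (SD, n = 2) of the cluster in MES and 7.08% ± 3.40 (SD, n = 4) in MEF TEsR, where the libraries ran from 4.06% to 11.9% and none reached the MES values.

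Mir92-1, the hairpin of miR-92a, which is known to restrain blood vessel growth, was low in MES, with 15 and 8 counts. It had 161, 50, 100 and 52 counts in MEF TEsR and 859 and 389 in TruSeq, where it ranked 2 and 3. Its other copy Mir92-2 had 5 and 9 counts in MES, 0 to 6 in MEF TEsR and none in TruSeq.

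**Figure D2:**
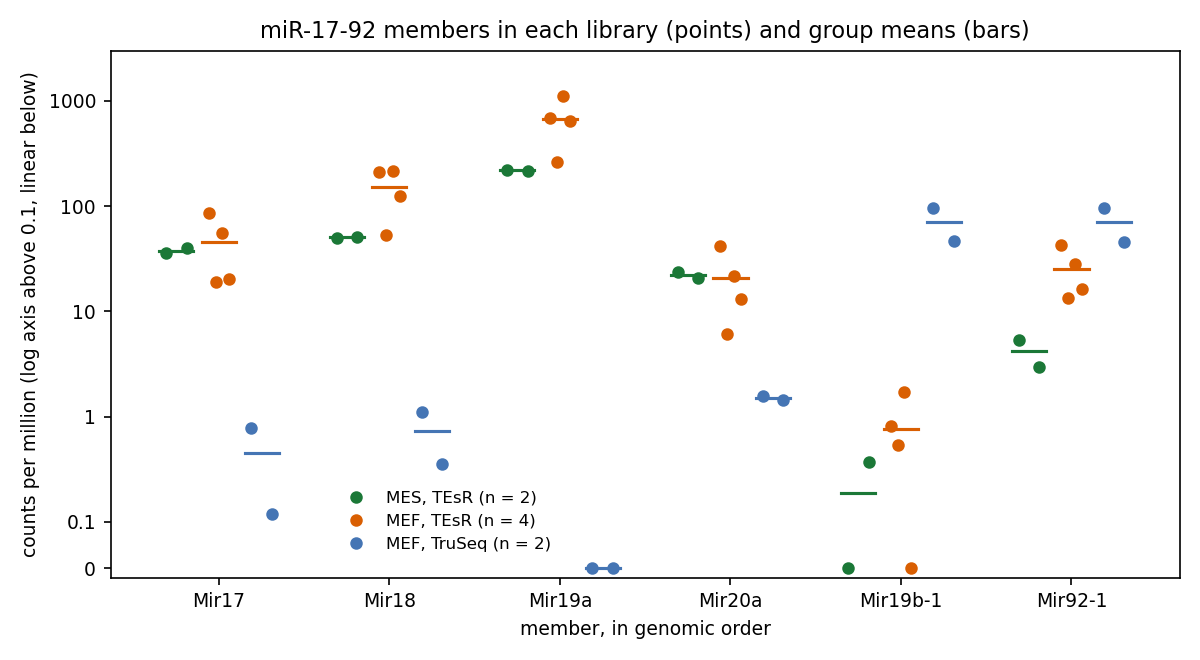
Level in CPM of each member in each library (points) and the group means (bars), on an axis that is logarithmic above 0.1. Mir19a is highest in both TEsR groups and at 0 in both TruSeq libraries, while Mir19b-1 and Mir92-1 are highest in TruSeq.

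Hairpin lengths run from 80 to 107 bases, so the order of members given here is per length. The shares, ranks by count and sums given elsewhere are not divided by length. In MES the order of mean levels in CPM per 100 bases was Mir19a (266), Mir18 (52.5), Mir17 (44.9), Mir20a (20.8), Mir92-1 (5.23) and Mir19b-1 (0.215), and no neighbours in this order had overlapping libraries. In MEF TEsR it was Mir19a (828), Mir18 (157), Mir17 (53.8), Mir92-1 (31.5), Mir20a (19.3) and Mir19b-1 (0.871). There the ranges of Mir18, Mir17, Mir92-1 and Mir20a over libraries overlapped from each to the next, but the order held within 4 of 4 libraries. In TruSeq Mir92-1 (88.7) and Mir19b-1 (81.7) overlapped, and Mir20a (1.39), Mir18 (0.766) and Mir17 (0.535) followed. The ranges of Mir18 and Mir17 also overlapped. Mir19a came last with 0 counts, which allows up to 0.335 and 0.355 CPM per library, before division by length. At that limit of 3 counts its place below Mir18 and Mir17 was not settled in CGATGT, where Mir18 had 3 counts and Mir17 had 1.

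Taken as sums, the members with 1 gene copy and those with 2 thus parted by method. Singly they did not all do so. In MEF TEsR Mir92-1, with 2 copies, stood above Mir20a, with 1, per length in 4 of 4 libraries. Mir17, Mir18, Mir19a and Mir20a made up 98.7% ± 0.406 (SD, n = 2) of the cluster in MES and 97.0% ± 1.13 (SD, n = 4) in MEF TEsR. In TruSeq they made up 1.89% ± 0.168 (SD, n = 2), on 31 and 16 counts, and Mir19b-1 with Mir92-1 made up 98.1% ± 0.168 (SD, n = 2). Only the TEsR columns are named with a tag, q10, and it is not stated whether reads that fit several places were handled alike in both tables. The part of such handling in these values, including the 0 counts in TruSeq of Mir19a, which has 1 copy, was not tested.

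**Figure D3:**
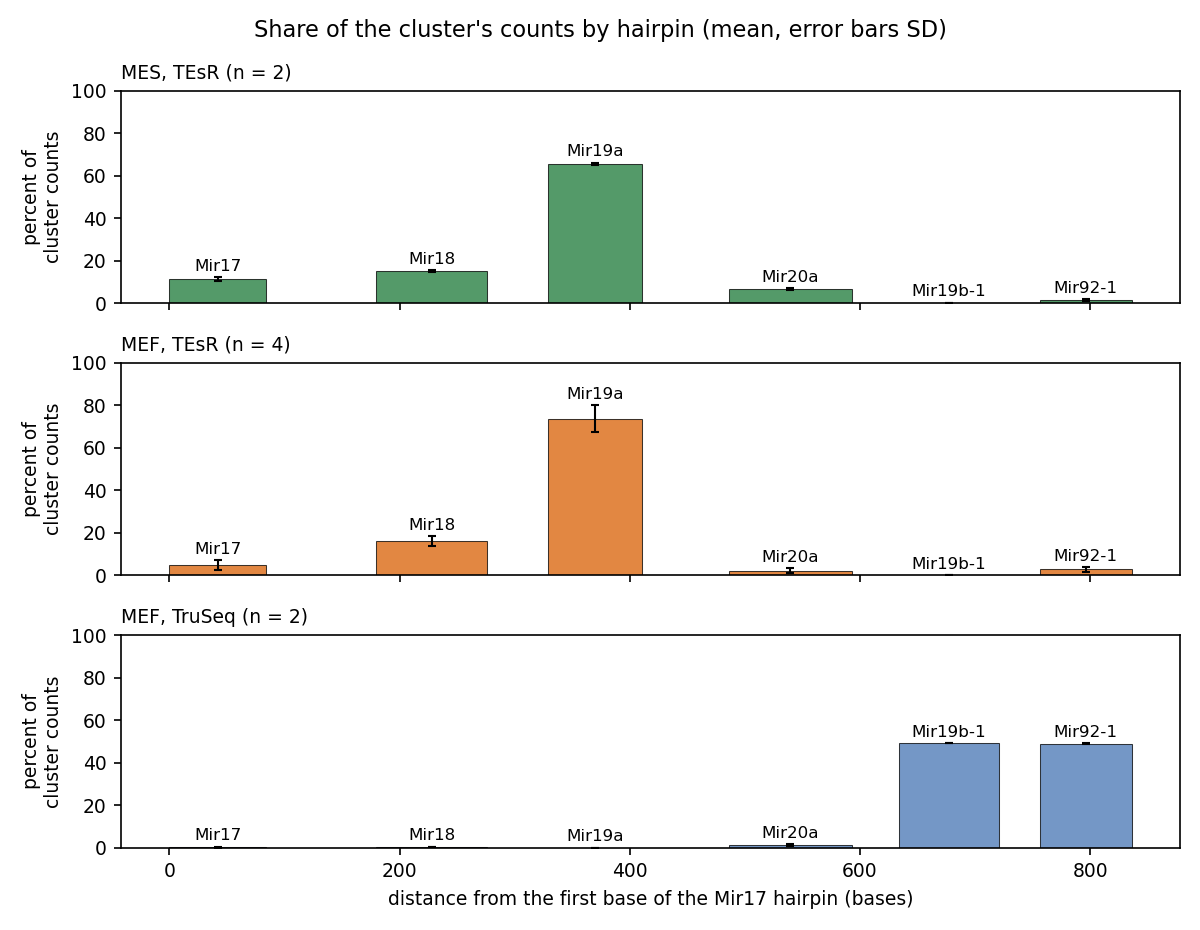
Percent of the cluster's counts on each hairpin (mean, error bars SD), drawn to scale by distance from the first base of Mir17, for MES TEsR, MEF TEsR and MEF TruSeq. The TEsR counts lie mostly on the third hairpin, Mir19a, and the TruSeq counts on the last pair, Mir19b-1 and Mir92-1.

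The TruSeq counts of Mir19b-1 and Mir92-1 were almost equal, with 859 on both rows in ATCACG and 391 and 389 in CGATGT. The rows do not overlap: 35 bases lie between them, the shortest gap in the cluster. Neighbouring miRNA rows within 100 bases of each other on 1 strand were compared where both had at least 50 counts in a library. In TruSeq this was the single such pair, and both of its values were equal to within 1%. In MEF TEsR 0 of 14 values, from 4 pairs, were that close, and in MES 0 of 8, also from 4 pairs. Most of these pairs were neighbours within the cluster itself. The pairs outside it were Mir23a and Mir27a in MEF TEsR and Mir294 and Mir295 in MES. TruSeq had no other pair to compare with. The tables hold totals per row, so whether the same reads were counted on both rows cannot be told from them. With Mir92-1 left out of the cluster and of the miRNA total, the cluster's share of miRNA counts was 19.6% and 13.7% in TruSeq, 13.8% and 13.5% in MES, and 1.70% to 2.26% in MEF TEsR. MEF TEsR was then lowest, and the TruSeq library CGATGT lay within the MES values. With both rows left out of the cluster but kept in the miRNA total, TruSeq was lowest, at 0.475% and 0.574%, below MEF TEsR at 1.70% to 2.26%.

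The first comparison tested per row was MES against MEF cells, both by TEsR, with edgeR's quasi-likelihood test on 273 rows. Of all tested rows 43.6% were called higher in MES and 31.5% lower at a Benjamini-Hochberg adjusted p under 0.05, and of the 108 tested miRNA rows 17.6% were higher and 56.5% lower. Of the 6 members 5 passed the filter on low counts, Mir19b-1 being too low. Among these 5, 0 were called higher and 1, Mir92-1, lower in MES, with a log2 difference of -1.76 ± 0.59 (SE; edgeR adjusted p = 0.0191). By counts its level was 4.19 ± 1.69 CPM (SD, n = 2) in MES against 25.2 ± 13.6 (SD, n = 4) in MEFs, with no overlap. The call was lost without MESrep2 (edgeR adjusted p = 0.183).

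The other 4 were not called. Mir19a had a log2 difference of -0.78 ± 0.44 (SE; edgeR adjusted p = 0.132) and Mir18 of -0.73 ± 0.47 (SE; edgeR adjusted p = 0.179). Both were called lower in MES without MEFmmS2, the MEF library with the smallest share of miRNA, at -1.07 and -1.04. Mir17 had a log2 difference of 0.60 ± 0.55 (SE; edgeR adjusted p = 0.336) and Mir20a of 0.95 ± 0.59 (SE; edgeR adjusted p = 0.161). Mir20a was called higher in MES without MEFmmS1, at 1.40.

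These differences are relative to the scaling. The median log2 difference of all 273 rows was 0.45 with TMM and -0.38 with library size only. The median log2 difference of the miRNA rows was -2.33 with TMM over all rows, and the median of the 5 members was -0.73. With library size only, Mir19a, Mir18 and Mir92-1 were all called lower in MES, at -1.63, -1.59 and -2.58. With miRNA rows scaled on their own, where their median difference was near 0, 4 of the 5 members were called higher in MES, beside 29.4% of 126 miRNA rows. Mir20a was then higher by a log2 difference of 3.14 ± 0.38 (SE; edgeR adjusted p = 2.4e-04) and Mir17 by 2.76 ± 0.37 (SE; edgeR adjusted p = 4.5e-04). Mir18 was higher by 1.41 ± 0.25 (SE) and Mir19a by 1.32 ± 0.25 (SE), both past the threshold, and Mir92-1, at 0.33 ± 0.42 (SE), was not called. Scaled among miRNA rows, then, 4 members were called higher in stem cells, while scaled over all rows 0 were.

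**Figure D4:**
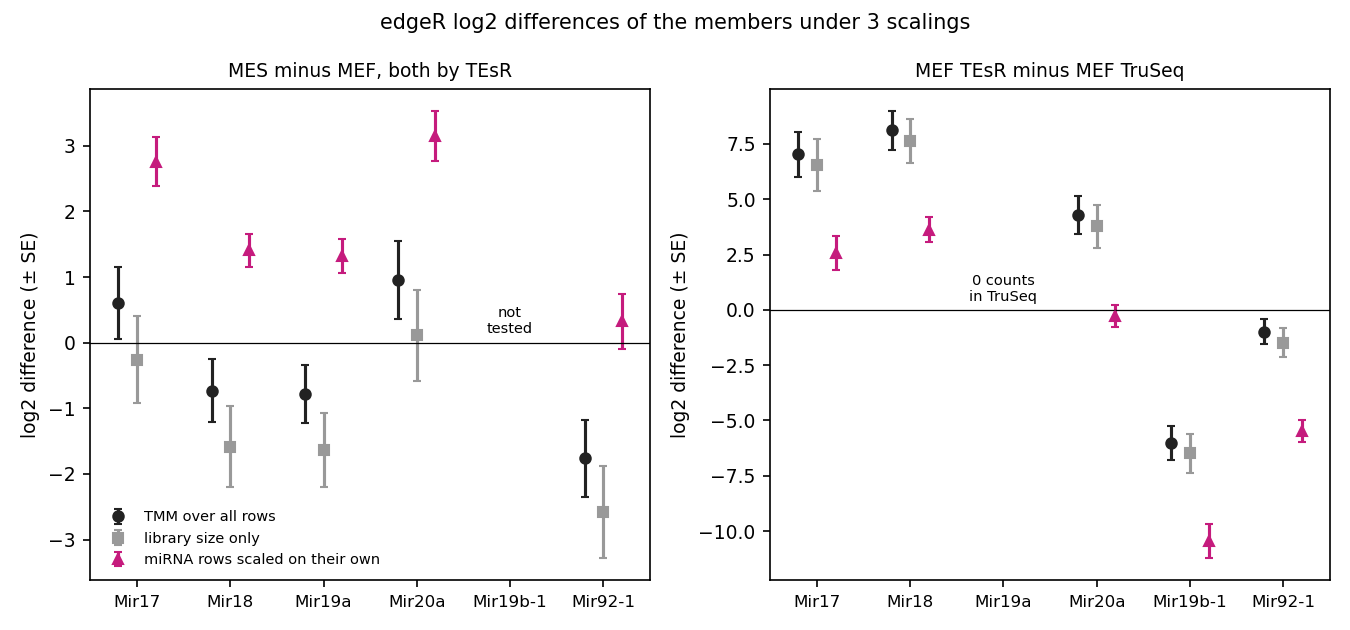
edgeR log2 differences with SE for each member under 3 scalings, for MES minus MEF by TEsR (left) and MEF TEsR minus MEF TruSeq (right). On the left Mir17 and Mir20a lie above Mir19a and Mir18 under each scaling, and all tested members lie above 0 when miRNA rows are scaled on their own. Mir19a has no value on the right, since it had 0 counts in TruSeq.

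Ratios between members within a library do not depend on the scaling. For each 100 counts of Mir19a, Mir17 stood at 16.1 and 18.5 counts in MES, and 12.4, 7.11, 5.06 and 3.15 in MEFmmS1, MEFmmS2, MEFpmS1 and MEFpmS2. Mir20a stood at 10.6 and 9.76 in MES, and 6.04, 2.30, 1.94 and 2.00 in the same MEF libraries. Neither overlapped between cell types. Relative to Mir19a, Mir17 was 2.82-fold and Mir20a 3.76-fold higher in MES by geometric means.

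Mir18 stood at 22.4 and 23.7 in MES and at 30.4, 20.0, 19.5 and 19.2 in MEFs, so that the cell types overlapped. Mir92-1 stood at 2.42 and 1.39 in MES and at 6.23, 5.01, 2.55 and 2.48 in MEFs, 2.04-fold higher in MEFs by geometric means. Of these 4 ratios, which all share Mir19a as denominator, 3 had no overlap between cell types. Each of the 3 had a two-sided exact permutation p of 0.133 (0.178 adjusted over the 4), the smallest that 2 against 4 libraries allow. The gap of Mir92-1 was narrow, at 2.42 in MESrep1 against 2.48 in MEFpmS2. It rested on 15 and 8 counts of Mir92-1 in the MES libraries, so this separation is not secure. For Mir18 the exact permutation p was 0.8. How many miRNA rows outside the cluster also part the cell types in their ratio to Mir19a was not tested. The separation is therefore not shown to be particular to these members.

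MEFmmS1 stood closest to MES for Mir17 and Mir20a. Without it Mir17 was 3.57-fold and Mir20a 4.90-fold higher in MES relative to Mir19a, and Mir92-1 was 1.72-fold higher in MEFs.

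**Figure D5:**
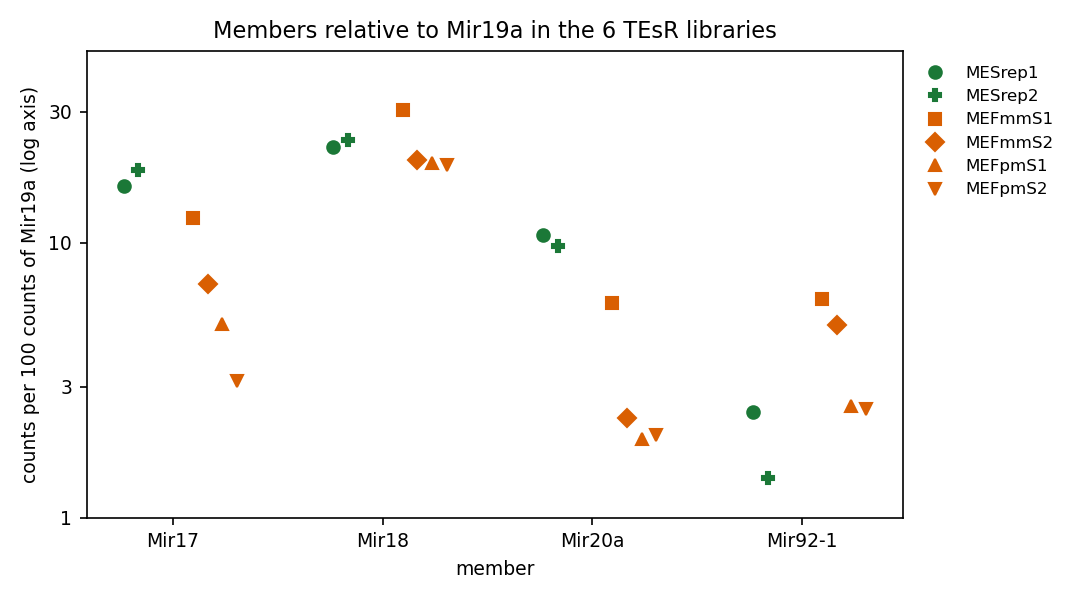
Counts of 4 members per 100 counts of Mir19a in each TEsR library, on a log axis. Mir17 and Mir20a are higher in both MES libraries than in any MEF library, and Mir18 overlaps. Mir92-1 is lower in both MES libraries, narrowly so in MESrep1.

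The second comparison set MEF TEsR against MEF TruSeq, in the same kind of cell. Method, instrument and table change together, and TruSeq libraries are all induced while only 2 of the 4 TEsR libraries are, so these cannot be told apart. Of 352 rows tested by edgeR, 32.4% were called higher by TEsR and 55.7% lower, and of 103 miRNA rows 81.6% were higher and 7.77% lower. The median log2 difference was -2.42 over all these rows and 6.28 over the miRNA rows. All 6 members were tested, of which 4 were called higher by TEsR and 1 lower.

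Mir19a, at 679 ± 344 CPM (SD, n = 4) by TEsR, was at least 1967-fold higher than the limit of 3 counts per library that its 0 counts in TruSeq allow. As a share of miRNA counts, which are few in TruSeq, the bound was lower: 1.46% by TEsR was at least 20.2-fold higher than the mean limit of 0.0723%. Mir18 was higher by TEsR by a log2 difference of 8.11 ± 0.87 (SE; edgeR adjusted p = 1.8e-06), and Mir17 by 7.02 ± 1.03 (SE; edgeR adjusted p = 2.9e-05). Mir20a was higher by 4.30 ± 0.87 (SE; edgeR adjusted p = 4.0e-04). Mir19b-1 was lower by TEsR (log2 difference -6.03 ± 0.77, SE; edgeR adjusted p = 9.1e-06), one of only 8 miRNA rows called lower. Mir92-1 was not called (log2 difference -0.99 ± 0.56, SE; edgeR adjusted p = 0.11), and its sign turned without ATCACG, to 0.07, while it was called lower by TEsR without CGATGT, at -1.67.

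Scaled among miRNA rows alone, the members also went both ways. Mir19a, Mir18 and Mir17 were called higher by TEsR, Mir19b-1 and Mir92-1 lower, and Mir20a, at -0.26 ± 0.49 (SE), was not called, beside 35.3% of 133 rows higher and 36.1% lower. Mir19b-1 was then at -10.46 ± 0.76 (SE) and Mir92-1 at -5.47 ± 0.49 (SE).

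The paralogous clusters were taken as the list of related genes, 9 rows in all. In MES against MEF by TEsR, 5 of the 9 were tested by edgeR, of which 3 were called higher in MES and 2 lower. Of all 108 tested miRNA rows 17.6% were higher and 56.5% lower. Mir106b, which shares its seed with Mir17 and held 28.0% ± 0.631 (SD, n = 2) of miRNA counts in MES and 29.4% ± 2.48 (SD, n = 4) in MEF TEsR, was lower in MES by a log2 difference of -3.50 ± 0.50 (SE), and Mir25, which shares the seed of Mir92-1, by -2.46 ± 0.54 (SE). With miRNA rows scaled on their own 6 were tested, 4 higher and 1 lower, beside 29.4% of 126 rows higher and 25.4% lower. Mir25 was no longer called under that scaling (-0.33; edgeR adjusted p = 0.313). Mir93 was higher in MES (1.93 ± 0.60, SE). It was not called with library size only (1.06; edgeR adjusted p = 0.201). Without MESrep1 or MESrep2 its difference was nearly the same, at 1.90 and 1.87, but missed the threshold (edgeR adjusted p = 0.0673 and 0.0893). Mir20b and Mir106a had no count in any MEF library and were at least 28.1-fold and 14.3-fold higher in MES against 3 counts per library. In MEF TEsR against TruSeq, 3 of the 9 were tested, and Mir106b and Mir25 were called higher by TEsR, beside 81.6% of 103 miRNA rows. Mir93 was not called (1.21 ± 0.72, SE), but was called lower by TEsR with miRNA rows scaled on their own (-3.34 ± 0.44, SE).

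By the pattern over all 8 libraries, the summed cluster was most like Mir872, with a Pearson correlation of 0.965 in log2(CPM + 1), followed by Mir28a (0.957), Mir27b (0.945), Mir425 (0.944) and Mir27a (0.942). These were the highest of 118 other miRNA rows with at least 10 counts in 2 or more libraries. The libraries share their method, depth and share of miRNA within a group, so these values only describe the likeness. Mir872 had 4 and 8 counts in MES, 60, 16, 72 and 22 in MEF TEsR and 2 and 0 in TruSeq.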

How the data were processed

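Total RNA of 8 mouse samples was counted over annotated small RNAs. The deposited values are raw counts per row, whole numbers that the authors did not normalize, in 2 tables that list 5518 identical rows. The build was mm10 and the tools named were bedtools 2.25.0, SAMtools 1.2.1, BWA 0.7.12 and cutadapt, per the submitters' processing notes. For their roles, settings and use of strand no source used here gives details. Columns were assigned by name. Rows were typed through GENCODE vM21, with 5445 rows at the same coordinates. Shares of miRNA use 2161 miRNA rows that overlap no snoRNA, snRNA or rRNA row, with overlapping rows of identical counts counted once and AC161199.1 (Snord43) left out.

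Rows were tested with edgeR 4.0.16 in R 4.3.3 (quasi-likelihood, robust, TMM, filterByExpr at its default minimum of 10 counts), with Benjamini-Hochberg adjustment over all tested rows and a threshold of 0.05. SE is the log2 difference divided by the root of F. The fit was tested on simulated counts. Rows changed 4-fold or 16-fold were called with the right sign in 100% of cases. Of unchanged rows, 3 of 153 were called for MES against MEF and 11 of 190 for TEsR against TruSeq. The same dispersion was set for all rows, so this does not show how the fit behaves at the spread of these libraries. Cluster sums (in CPM, TMM-scaled CPM and percent of miRNA counts) and ratios used exact permutation tests over libraries. Replicates differed beyond sampling noise (ratio of chi-square to degrees of freedom 21.9 in MES, 285 or more in MEF TEsR and 533 in TruSeq), so none was counted as a duplicate. Alternatives were DESeq2 1.42.0, library size only, no filter, miRNA rows scaled on their own, 1 fit of all 8 libraries, identical overlapping rows counted once, and each library left out.

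All 6 members, their copies and the paralogous clusters are named, and the 5 miRNAs of most like pattern. The members and lists were chosen with earlier results of these data known. A comparison of induced with uninduced MEFs was planned only for columns that could be matched and was not made.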

Additional observations from a re-analysis of the deposited data

Results flagged for a closer look

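MEFmmS1 stood apart from the other 3 MEF TEsR libraries in 4 of 24 sets of values examined for a library far from the rest, of which chance flags about 1 in 20. Mir18 made up 19.6% of its cluster counts, against 14.9% to 15.1% in the others, and Mir20a 3.89%, against at most 1.71%. Per 100 counts of Mir19a it had 30.4 counts of Mir18, against 19.2 to 20.0, and 6.04 of Mir20a, against 1.94 to 2.30. These measures share counts and are not independent of each other.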

How the results depend on the processing

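Among log2 differences of single members, under the alternatives 115 values kept their direction and their side of the threshold, 10 passed it only under the alternative, 1 lost it and 6 turned. Scaling moved most of the others. As percent of miRNA counts the cluster sum turned: the log2 ratio of MES to MEF TEsR went from -1.47 to 2.80 (2.82 without Mir19b-1 and Mir92-1, an alternative chosen after seeing the data), and that of MEF TEsR to TruSeq from 2.67 to -3.82 (but 1.88 without the same 2 members). With TMM-scaled CPM they were -0.61 and 3.14. Leaving out 1 library gave -1.74 to -1.17 and 2.24 to 3.29. With miRNA rows scaled on their own, fewer rows were tested, and the calls over all rows went from 119 higher and 86 lower in MES to 37 and 32, and from 114 higher and 196 lower by TEsR to 47 and 48. The members called in MES against MEF then went from 0 higher and 1 lower to 4 and 0, and Mir19a, Mir18 and Mir92-1 turned to 1.32, 1.41 and 0.33. With library size only, 3 members were lower in MES and Mir17 turned to -0.26. Against TruSeq, 2 members were lower by TEsR under both scalings, and Mir20a turned to -0.26 with miRNA rows scaled on their own. With 1 library left out, 0 to 1 members were higher and 0 to 3 lower in MES, and 1 to 2 were lower by TEsR; Mir92-1 ranged from -1.67 without CGATGT to 0.068 without ATCACG. Where 1 MES or TruSeq library was left, its spread was taken as that of the other group. Beyond these, the cause was not tested. No paired analysis was possible because the MEF and TruSeq columns carry no replicate number that the labels tie to a sample. Counts of 0 to 14 limit Mir19b-1 by TEsR and Mir17, Mir18 and Mir20a in TruSeq, and counts of 15 and 8 limit Mir92-1 in MES.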

Other observations

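Grouped by the seed of the usually dominant arm over the 15 hairpins of the cluster and its paralogs, the cluster's part differed between seeds. Each row is a whole hairpin, so these are shares of hairpin counts, and not of reads known to carry the seed. A seed's counts here are those of the 15 hairpins only. In mouse 7 distinct mature miRNAs carry AAAGUGC and 6 carry AUUGCAC, and some of these come from other hairpins, which were left out. In TruSeq they rest mostly on Mir19b-1 and Mir92-1, for which it cannot be told whether the same reads were counted on both rows. The AAAGUGC seed held 70.9% ± 0.551 (SD, n = 2) of these counts in MES, 91.5% ± 0.292 (SD, n = 4) in MEF TEsR and 8.40% ± 3.51 (SD, n = 2) in TruSeq. Mir17 and Mir20a gave 7.60% ± 0.212 (SD, n = 2) of that seed's counts in MES against 0.474% ± 0.223 (SD, n = 4) in MEF TEsR, the rest coming mostly from Mir106b. The GUGCAAA seed of miR-19 came nearly all from the cluster, with 99.2% ± 0.189 (SD, n = 2) of its counts in MES against 100% in all MEF libraries. It held 19.8% ± 0.0438 (SD, n = 2) of the 15-hairpin total in MES, 4.53% ± 0.459 (SD, n = 4) in MEF TEsR and 45.5% ± 1.66 (SD, n = 2) in TruSeq. For the AUUGCAC seed the cluster gave 8.02% ± 2.00 (SD, n = 2) in MES against 6.01% ± 1.93 (SD, n = 4) in MEF TEsR, where Mir25 led, but 99.4% ± 0.295 (SD, n = 2) in TruSeq.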
